A study of Mus musculus with 12 samples.

Results

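Deep cortical layer markers are genes whose expression distinguishes the neurons of layers 5, 6 and 6b of the neocortex from those above them. The 10 genes examined here were a named set, 4 of layer 5 (Bcl11b, Fezf2, Etv1 and Pcp4), 4 of layer 6 (Foxp2, Tle4, Ntsr1 and Syt6) and 2 of layer 6b (Nxph4 and Cplx3), and all 10 were measured among 18820 distinct gene symbols. Each was read from the probe set, a group of array probes for 1 transcript, that carried only that symbol and had the highest mean over the 12 samples. Values are log2 expression, and a difference of 1 on this scale is a doubling.

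The samples were 6 offspring of poly(I:C)-treated mothers and 6 offspring of saline-treated mothers, called control. All 12 were C57BL/6N mice, as the sample labels give the strain, killed at 12 weeks of age after behavioural testing, and each gave RNA of the micro-dissected medial prefrontal cortex to 1 array. Poly(I:C), which mimics the double-stranded RNA of viruses, was given to the mothers at 5 mg/kg intravenously on gestation day 17, and control mothers received saline on the same day. The comparison asks how prenatal immune activation bears on expression in the adult cortex. The labels call the samples biological replicates but name neither litter nor sex, so littermates may be among them, and p-values reflect variation among these individuals alone. The model is a single late-gestation challenge, and the tissue holds all cortical layers with their glia.

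Layer 5 holds pyramidal neurons that project to the spinal cord, brainstem and striatum, beside others that project within the cortex. Layer 6 neurons project mainly to the thalamus, and layer 6b is a thin sheet above the white matter that descends from the embryonic subplate. In the developing mouse cortex Fezf2 specifies subcortical projection neurons and acts upstream of Bcl11b, while Tbr1 and Sox5 restrain that programme in layer 6. Several markers are not exclusive to the cortex: Bcl11b, Foxp2 and Pcp4 are also expressed by striatal projection neurons. In bulk tissue, fewer cells of a type and less RNA per cell cannot be told apart.

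Across the 10 markers, 1 was lower and none was higher in poly(I:C) offspring past an adjusted p of 0.05 in the limma fit over all 23099 annotated probe sets, of which 0.805% were lower by the same rule, 2.02% higher and 2.83% called in either direction. An unadjusted p under 0.05 was reached by 5 markers, all with lower means, against 19.1% of all probe sets in either direction. Those lower by this cutoff were 7.33% of all probe sets and those higher 11.7%. The 2 groups of animals overlapped in each of the 10 markers, while 2.37% of all probe sets had groups that did not overlap and 0.636% of all probe sets had groups that did not overlap with poly(I:C) offspring lower. The mean was lower in 9 of 10 markers and in 11093 of 23099 probe sets. The median difference of the markers was -0.10 log2, beside 0.003 for all probe sets. The markers of layer 6 and 6b all had lower means in poly(I:C) offspring, whereas 2 of the 4 layer 5 markers differed by under 0.02 log2 and Etv1 was above 0.

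**Figure D1:**
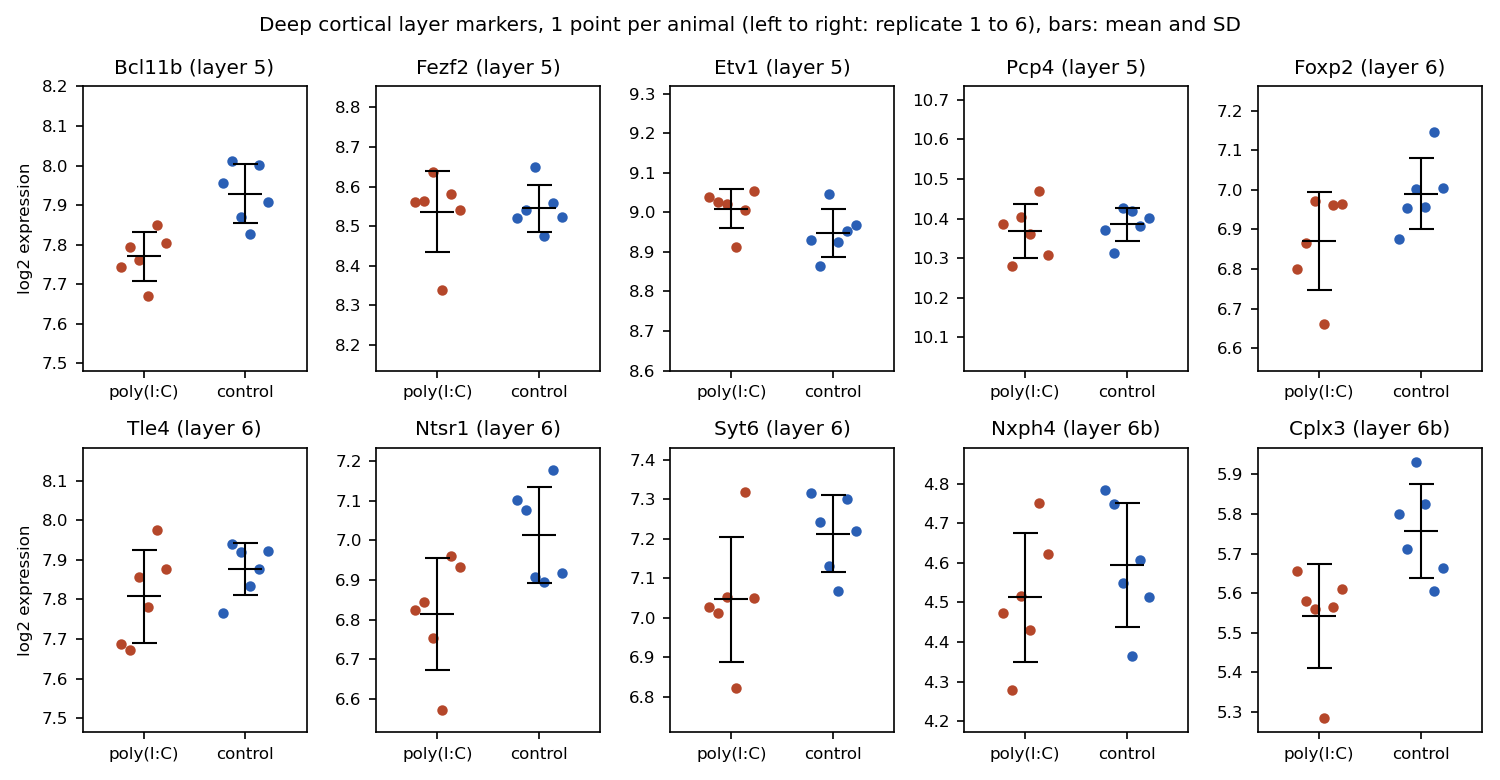
Log2 expression of each deep-layer marker in every animal, poly(I:C) offspring left and control offspring right, with the mean and SD of each group as bars (n = 6 each) and a vertical span of equal height in every panel. The groups of Bcl11b overlap least, with 5 of 6 poly(I:C) animals below the lowest control. For Fezf2 1 poly(I:C) animal lies below the control range. For Pcp4 2 lie below the control range and 1 above it.

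Bcl11b encodes a zinc finger transcription factor (also called Ctip2) needed for the axons of subcerebral neurons to extend and bundle, strongest in layer 5 and weaker in layer 6. On probe set 10402554 it ran from 7.67 to 7.85 with a median of 7.78 in poly(I:C) offspring, against 7.83 to 8.01 with a median of 7.93 in control offspring. The groups touched only through poly(I:C) 5, at 7.85, and control 4, at 7.83. Its mean fell to 7.77 ± 0.06 in poly(I:C) offspring, against 7.93 ± 0.07 in control offspring (SD, n = 6 each), a log2 difference of -0.16 ± 0.04 (SE) or -10.4% (limma adjusted p = 0.0398). It was the only marker past the threshold. The call was kept without poly(I:C) 2, poly(I:C) 5 or control 4, and lost without any of the other 9 animals, with limma adjusted p from 0.0244 to 0.0952 and differences from -0.18 to -0.14 log2.

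Fezf2, the zinc finger factor upstream of Bcl11b, gave a value near 0. It ran from 8.34 to 8.64 with a median of 8.56 in poly(I:C) offspring and from 8.48 to 8.65 with a median of 8.53 in control offspring. Poly(I:C) 4 lay alone at the bottom and the other poly(I:C) animals lay within the control range. The difference was -0.01 log2, with a 95% interval from -0.10 to 0.09 (limma adjusted p = 0.944). Without poly(I:C) 4 it was 0.03.

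Pcp4, a small calmodulin-binding protein that marks layer 5 and parts of layer 6, also gave a value near 0. It ran from 10.28 to 10.47 in poly(I:C) offspring, with a median of 10.37, and from 10.31 to 10.43 in control offspring, with a median of 10.39. Its difference of -0.02 log2 had an interval from -0.09 to 0.06 (limma adjusted p = 0.832). For Fezf2 and Pcp4 these intervals lie above the value estimated for Bcl11b but overlap its own interval, from -0.24 to -0.08. The differences between the genes were not tested.

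Etv1, an ETS-family transcription factor of layer 5 projection neurons, had a higher mean in poly(I:C) offspring. On the brighter of its probe sets, 10406934, it ran from 8.91 to 9.05 with a median of 9.02 in poly(I:C) offspring. Control offspring ran from 8.86 to 9.04 with a median of 8.94. The ranges overlapped through poly(I:C) 4, at 8.91, and control 3, at 9.04. The remaining poly(I:C) animals, from 9.01 up, lay above the remaining controls, up to 8.97. The difference was 0.06 ± 0.04 log2 (SE; limma adjusted p = 0.347). Its other probe set, 10395457, separated the groups further, from 8.43 to 8.65 in poly(I:C) offspring against 8.21 to 8.46 in control offspring. There 4 of 6 poly(I:C) animals exceeded the highest control, and the difference was 0.18 ± 0.05 log2 (SE; limma adjusted p = 0.0531). The probe sets of Etv1 thus shared a direction and differed in size, and neither passed. Probe set 10395457 passed with the filter at the 25th percentile of brightness (adjusted p = 0.0475), with eBayes with trend and robust (0.0338), with array weights (0.0356), and without poly(I:C) 2, control 3 or control 5 (0.0400, 0.0474 and 0.0491).

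**Figure D2:**
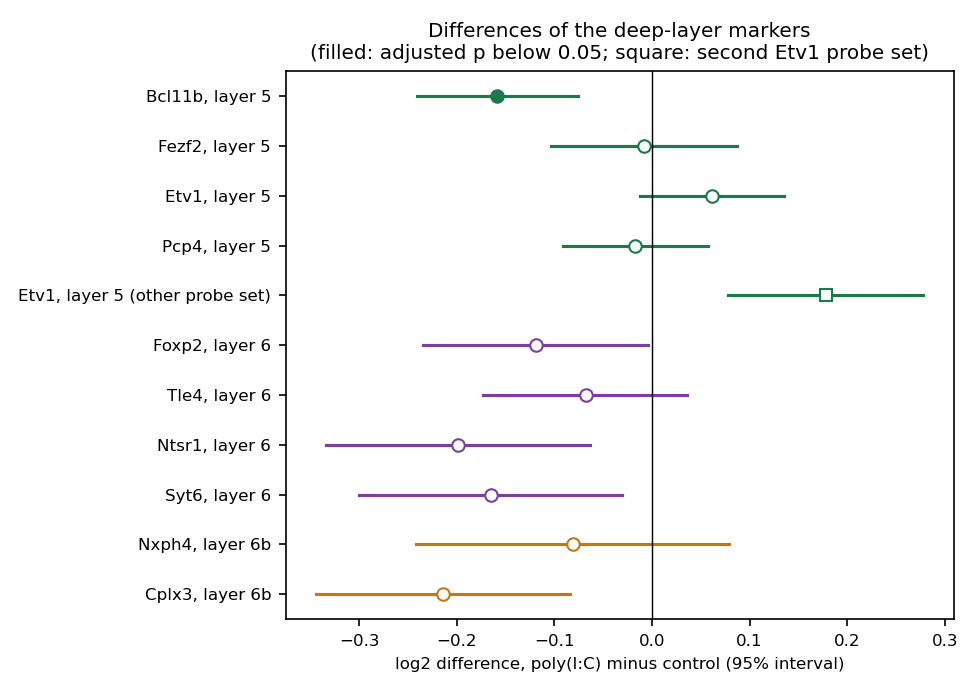
Log2 difference, poly(I:C) minus control, of each deep-layer marker and of the second Etv1 probe set (square), with 95% intervals from limma, grouped from layer 5 at the top to layer 6b at the bottom. Filled points passed an adjusted p of 0.05. Only Bcl11b is filled, and both Etv1 points lie right of 0.

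Ntsr1, the neurotensin receptor used as a marker of corticothalamic neurons of layer 6, had the largest difference in that layer. It ran from 6.57 to 6.96 with a median of 6.83 in poly(I:C) offspring and from 6.90 to 7.18 with a median of 7.00 in control offspring. The poly(I:C) animals 5 and 6 lay within the control range and the other 4 below it. Its means were 6.81 ± 0.14 in poly(I:C) offspring and 7.01 ± 0.12 in control offspring (SD, n = 6 each), a difference of -0.20 ± 0.06 log2 (SE; limma adjusted p = 0.0974). All 6 poly(I:C) animals were below the control mean, but the difference did not pass.

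Syt6 encodes a synaptotagmin, a membrane protein of the vesicle fusion family. Its values were 6.82 to 7.32 with a median of 7.04 in poly(I:C) offspring and 7.07 to 7.31 with a median of 7.23 in control offspring. Poly(I:C) 5 was the highest of all 12 animals, and the other 5 poly(I:C) animals lay below the lowest control. The difference was -0.17 ± 0.06 log2 (SE; limma adjusted p = 0.162). Without poly(I:C) 5 it was -0.22 and passed (adjusted p = 0.0359).

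The transcription factor genes of layer 6 were closer. Foxp2, a forkhead factor, ran from 6.66 to 6.97 in poly(I:C) offspring and from 6.88 to 7.14 in control offspring, a difference of -0.12 ± 0.05 log2 (SE; limma adjusted p = 0.246). Tle4, a Groucho-family corepressor of corticothalamic neurons, ran from 7.67 to 7.98 in poly(I:C) offspring and from 7.77 to 7.94 in control offspring, a difference of -0.07 ± 0.05 log2 (adjusted p = 0.471). The lowest and the highest Tle4 values of the series were both in poly(I:C) animals, so its groups differed less than they spread.

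Cplx3, a complexin that regulates synaptic vesicle fusion and marks layer 6b, had the largest difference of the 10. It ran from 5.28 to 5.66 with a median of 5.57 in poly(I:C) offspring, against 5.61 to 5.93 with a median of 5.76 in control offspring. Poly(I:C) 4 lay alone at the bottom, and 4 of 6 poly(I:C) animals were below the lowest control. Its means were 5.54 ± 0.13 in poly(I:C) offspring and 5.76 ± 0.12 in control offspring (SD, n = 6 each), a difference of -0.21 ± 0.06 log2 or -13.8% (limma adjusted p = 0.0679). It passed when control 5 was left out, at -0.24 log2 (adjusted p = 0.0435).

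Nxph4, a neurexophilin, one of the secreted ligands of alpha-neurexins, is the other layer 6b marker and was dim. Its mean over the 12 animals was 4.55 log2, the 29.2 percentile of all probe sets tested. It ran from 4.28 to 4.75 in poly(I:C) offspring and from 4.36 to 4.78 in control offspring, and the ranges overlapped almost completely. The difference was -0.08 ± 0.08 log2 (SE; limma adjusted p = 0.591).

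To set the layers side by side within each animal, every marker was centred on its own mean over the 12 animals and averaged by layer, since the levels of different probe sets are not comparable. The layer 5 mean was -0.015 ± 0.054 in poly(I:C) offspring and 0.016 ± 0.031 in control offspring (log2, SD, n = 6 each). The layer 6 mean was -0.069 ± 0.117 in poly(I:C) offspring and 0.069 ± 0.063 in control offspring. The layer 6b mean was -0.074 ± 0.114 in poly(I:C) offspring and 0.074 ± 0.089 in control offspring. These means are descriptions without a test, because the markers were chosen with earlier results of these data known.

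Group differences were thus -0.03 log2 in layer 5, -0.14 in layer 6 and -0.15 in layer 6b. In layers 6 and 6b, 4 of 6 poly(I:C) animals were below the lowest control, and in layer 5 only poly(I:C) 4 was. Within animals, layer 5 minus layer 6 averaged 0.054 ± 0.075 in poly(I:C) offspring and -0.054 ± 0.059 in control offspring, and 4 of 6 poly(I:C) animals exceeded every control. Layer 6 minus layer 6b averaged 0.005 ± 0.052 in poly(I:C) offspring and -0.005 ± 0.111 in control offspring, with the poly(I:C) range inside that of the controls. The layer 5 average joins unlike members, as Bcl11b was lower and Etv1 higher.

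**Figure D3:**
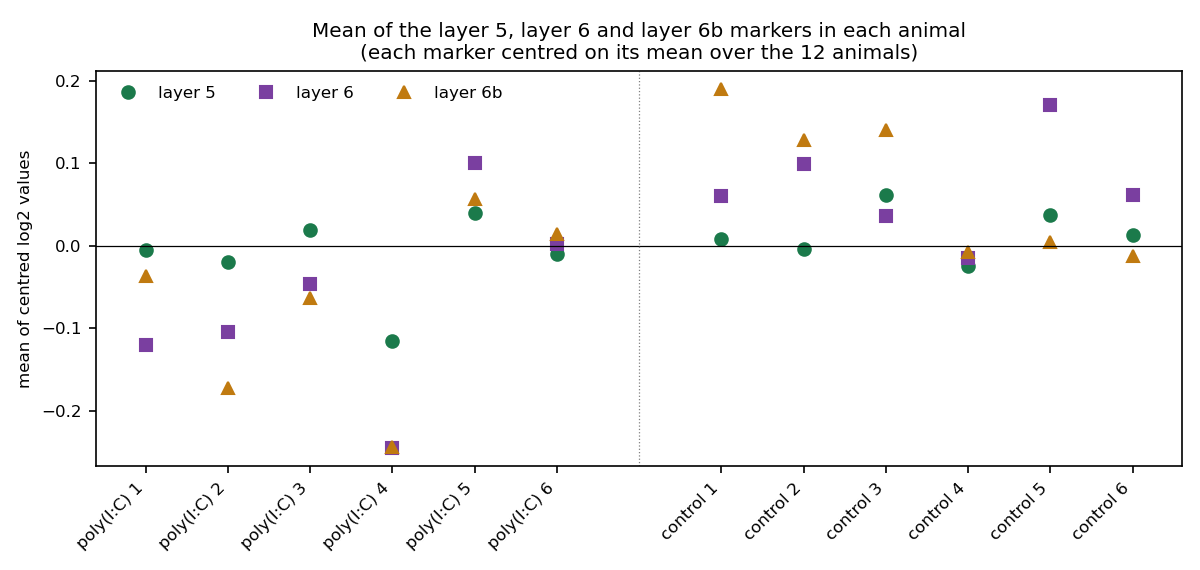
Mean of the layer 5 (circles), layer 6 (squares) and layer 6b markers (triangles) in each animal on the log2 scale, with every marker centred on its mean over the 12 animals, poly(I:C) offspring left and control offspring right. Poly(I:C) 4 has the lowest mean in all 3 layers, and poly(I:C) 5 lies above 0 in all 3.

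The poly(I:C) animals were not alike. Poly(I:C) 4 was the lowest of its group for 7 of the 10 markers and among the lowest 3 for all 10, with layer means of -0.115, -0.245 and -0.244 in layers 5, 6 and 6b. Poly(I:C) 5 was the highest of its group for 6 markers, with layer means of 0.040, 0.100 and 0.057. Among controls, control 4 was lowest for 5 markers. Leaving out poly(I:C) 4 moved the differences of Ntsr1, Syt6 and Cplx3 to -0.15, -0.12 and -0.16 log2, each still below 0, and no marker was then called.

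How the markers varied among animals beyond the group difference was examined by centring each within its group and correlating the 45 pairs over the 12 animals. Pearson's r was above 0 in 39 pairs, with a median of 0.26 and a range from -0.24 to 0.91. All values of an animal come from 1 array, so they share its normalization and its dissection. Adjusted over the 45 pairs, 3 passed by Pearson's r and 4 by Spearman's rho.

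The 3 pairs joined Bcl11b, Ntsr1 and Syt6 to one another. Bcl11b and Ntsr1 correlated at r = 0.91 (permutation p = 0.00034, adjusted 0.015) and rho = 0.90 (permutation p = 0.00064, adjusted 0.029). Bcl11b and Syt6 correlated at r = 0.84 (permutation p = 0.0013, adjusted 0.029) and rho = 0.83 (permutation p = 0.0017, adjusted 0.029). Ntsr1 and Syt6 correlated at r = 0.83 (permutation p = 0.003, adjusted 0.046) and rho = 0.80 (permutation p = 0.0041, adjusted 0.046). Without the 2 animals farthest from the median of the first-named gene these r were 0.86, 0.69 and 0.75. Syt6 and Nxph4 passed by rho only, at 0.83 (permutation p = 0.0019, adjusted 0.029) with r = 0.74 (permutation p = 0.012, adjusted 0.13), and r stayed at 0.74 without its 2 extreme animals.

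Bcl11b, assigned to layer 5, thus varied with Ntsr1 and Syt6 of layer 6. With the other layer 6 markers its r did not pass, at 0.55 for Foxp2 (permutation p = 0.075, adjusted 0.27; rho = 0.38, permutation p = 0.24, adjusted 0.64) and 0.32 for Tle4 (permutation p = 0.31, adjusted 0.63; rho = 0.50, permutation p = 0.09, adjusted 0.37). Its r with Fezf2 was 0.43 (permutation p = 0.17, adjusted 0.44; rho = 0.22, permutation p = 0.50, adjusted 0.73) and its r with Etv1 was -0.01 (permutation p = 0.97, adjusted 0.97; rho = -0.09, permutation p = 0.79, adjusted 0.89). Without poly(I:C) 4 and control 4 the r of Bcl11b was -0.41 with Fezf2, -0.73 with Etv1, 0.28 with Foxp2 and 0.29 with Tle4. Cplx3 correlated with Bcl11b at r = -0.01 (permutation p = 0.97, adjusted 0.97; rho = -0.29, permutation p = 0.39, adjusted 0.73) and with its layer partner Nxph4 at r = 0.02 (permutation p = 0.95, adjusted 0.97; rho = -0.05, permutation p = 0.89, adjusted 0.93). Fezf2 and Etv1 correlated at r = 0.73 (permutation p = 0.021, adjusted 0.16; rho = 0.62, permutation p = 0.039, adjusted 0.25), which was 0.28 without poly(I:C) 4 and control 3 and so rested on those animals.

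**Figure D4:**
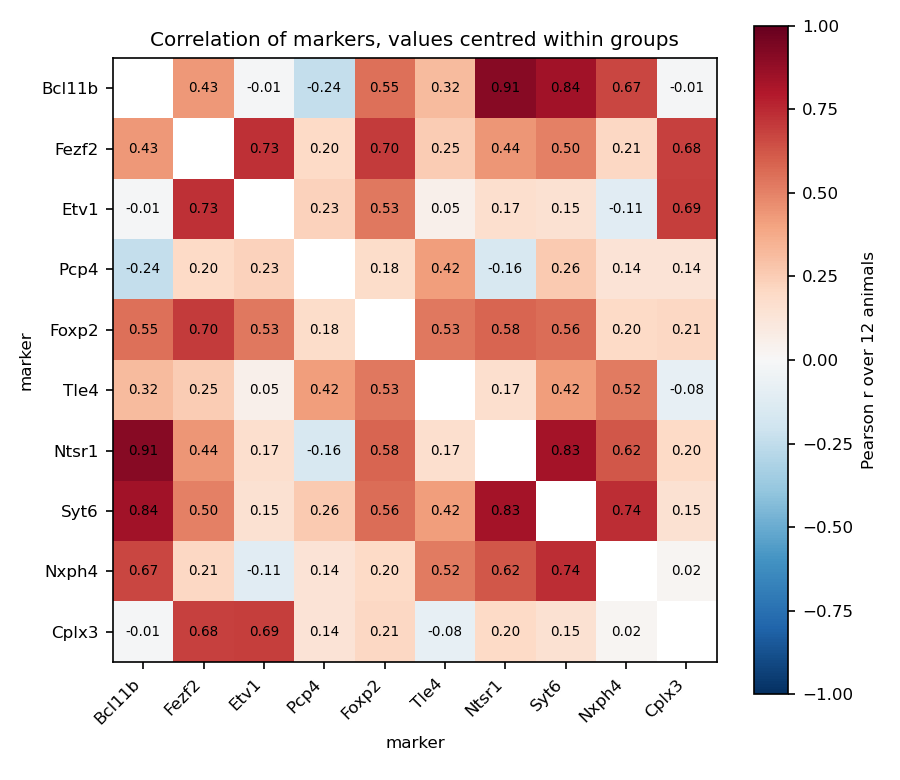
Pearson's r between deep-layer markers over the 12 animals, with values centred within groups, ordered from layer 5 to layer 6b. The darkest cells join Bcl11b, Ntsr1 and Syt6, at 0.83 to 0.91.

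The sequence before the annotated start was examined for these genes, as Ntsr1 and Syt6 varied together and Cplx3 had the largest difference between groups. RefSeq (build GRCm38.p6) gave windows for 8 of the 10 markers, and the 250 bases upstream of the start are shown for these genes, whose first windows lie wholly outside the annotated gene, with CpG dinucleotides in capitals. Ntsr1 is at chr2:180499726-180499975 (+ strand), Syt6 at chr3:103574995-103575244 (+ strand) and Cplx3 at chr9:57606282-57606531 (- strand).
Ntsr1: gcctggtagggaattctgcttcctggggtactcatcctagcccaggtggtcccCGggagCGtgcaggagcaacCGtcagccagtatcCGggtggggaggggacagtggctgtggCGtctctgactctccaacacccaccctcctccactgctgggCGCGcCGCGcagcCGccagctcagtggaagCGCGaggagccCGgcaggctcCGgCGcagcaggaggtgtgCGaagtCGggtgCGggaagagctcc
Syt6: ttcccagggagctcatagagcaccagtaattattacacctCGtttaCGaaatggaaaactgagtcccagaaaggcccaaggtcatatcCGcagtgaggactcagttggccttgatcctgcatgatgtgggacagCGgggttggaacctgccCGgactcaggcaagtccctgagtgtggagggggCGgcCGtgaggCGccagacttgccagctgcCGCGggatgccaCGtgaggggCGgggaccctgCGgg
Cplx3: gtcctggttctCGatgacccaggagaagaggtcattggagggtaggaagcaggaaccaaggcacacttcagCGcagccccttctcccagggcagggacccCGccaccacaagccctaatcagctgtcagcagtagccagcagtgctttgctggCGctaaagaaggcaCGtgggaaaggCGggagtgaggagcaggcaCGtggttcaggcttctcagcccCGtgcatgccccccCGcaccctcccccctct

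These windows held 18 CpG in Ntsr1, 13 in Syt6 and 9 in Cplx3, beside a median of 6 over the 32851 windows of the table. Their GC content was 68.4%, 60.4% and 62.8%, beside a median of 52.4%. Other matched markers lay on both sides of that median. GC content was 44.8% in Bcl11b, 46.8% in Pcp4 and 46.4% in the first Etv1 window, but 61.2% in Fezf2 and 65.2% in the first Tle4 window. Their CpG counts were 9, 3, 9, 14 and 24. Both strands were searched for the T-box core TCACACC, the SOX core AACAAT and TGACCA, the core bound in human cells by BCL11A, the paralogue of Bcl11b. None of the 3 printed windows held one. All windows of the table held them in 3.3%, 9.4% and 11.4%. Of the 12 windows of the matched markers, TGACCA was in that of Pcp4 and AACAAT in 1 of Etv1 and 1 of Tle4.

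Other deep-layer markers, a list chosen with earlier results known, were measured in 16 of 16 cases. None was called, beside 2.83% of all probe sets. By an unadjusted p under 0.05, 3 were lower and 1 higher, beside 7.33% lower and 11.7% higher among all probe sets. Their means were lower in 13, beside 11093 of 23099 probe sets, with a median difference of -0.06 log2. Sla, a Src-like adaptor expressed in deep layers, was at -0.25 ± 0.07 log2 (SE; limma adjusted p = 0.0566), with 5 of 6 poly(I:C) animals below the control mean. Ccn2, a secreted matrix protein that marks layer 6b, was at -0.26 ± 0.08 (adjusted p = 0.0904), and Crym, a thyroid hormone-binding protein, at -0.13 ± 0.06 (0.237). Deptor, an inhibitor of mTOR signalling expressed in layer 5, was the member above 0 with the lowest p, at 0.12 ± 0.05 (0.258).

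Among 23 of 25 measured relatives and partners of the markers, Sox4 fell and the other 22 did not pass, beside 2.83% of all probe sets called. Sox4, a SoxC transcription factor of differentiating neurons, averaged 5.58 in poly(I:C) offspring and 5.88 in control offspring, a difference of -0.30 ± 0.06 log2 (SE; limma adjusted p = 0.0152) with 6 of 6 poly(I:C) animals below the control mean. Its call was kept without any single animal (adjusted p from 0.00808 to 0.0417). It was lost without variance moderation (0.0759), with the striatal covariate (-0.21 log2, 0.118) and with the myelin covariate (-0.27 log2, 0.251). Its paralogue Sox11 was at -0.20 ± 0.06 (0.0920), Pcp4l1, a paralogue of Pcp4, at -0.27 ± 0.08 (0.0780), and Nxph3, a paralogue of Nxph4, at -0.28 ± 0.09 (0.0919). Of other factors singled out after their values were seen, Sox5 was at 0.03 (adjusted p = 0.645), Tbr1 at 0.01 (0.868) and Bcl11a at 0.00 (0.995).

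Upper-layer markers were set beside them. Of 13 measured, none was called, beside 2.83% of all probe sets. Means were higher in 9, beside 12006 of 23099 probe sets, and 5 were higher by an unadjusted p under 0.05, beside 11.7% of all probe sets. The median difference was 0.05 log2. The lowest p-values were those of Calb1, a calcium-binding protein, at 0.13 ± 0.04 (SE; limma adjusted p = 0.0623), Rorb, a nuclear receptor of layer 4, at 0.13 ± 0.04 (0.0819), Inhba, an activin subunit, at 0.25 ± 0.08 (0.0958), and Rasgrf2, an exchange factor of layer 2, at 0.14 ± 0.05 (0.117). The difference between deep and upper markers was not tested.

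Markers listed here as striatal and as myelin also had lower means in poly(I:C) offspring. Bulk values do not show which cells of the dissected tissue expressed them, so neither list measures adjoining tissue alone. The striatal list, without any gene of the set, ran from 5.98 to 6.11 in poly(I:C) offspring and from 6.02 to 6.604 in control offspring. Means were lower in 13 of 13 members, beside 11093 of 23099 probe sets. The 1 called, beside 0.805% of all probe sets called lower, was Ppp1r1b, the dopamine-regulated phosphatase inhibitor (-0.27 log2, limma adjusted p = 0.0281). Its call was lost without poly(I:C) 1, 3 or 4 or control 2 or 6 (adjusted p up to 0.0674). The call was also lost with all rows of the table (adjusted p = 0.0631), without variance moderation (0.103) and with the myelin covariate (0.45). Controls 5 and 6 stood apart in the striatal score, at 6.604 and 6.455, with the other 4 controls at 6.02 to 6.23. The score differed by -0.24 log2 with all controls and by -0.10 without controls 5 and 6, where Ppp1r1b was at -0.18 (adjusted p = 0.0538) and Bcl11b at -0.15 (0.0928). The others with the lowest p were Gpr6 at -0.49 ± 0.13, Isl1 at -0.13 ± 0.04 and Drd2 at -0.54 ± 0.17 (SE; limma adjusted p = 0.0592, 0.0754 and 0.0980). With the striatal score as a covariate Bcl11b was at -0.12 log2 (adjusted p = 0.210) and Cplx3 at -0.30 (0.0460). In the same fit the layer 6 markers were at -0.03 for Foxp2, -0.02 for Tle4, -0.14 for Ntsr1 and -0.10 for Syt6, each closer to 0 than without the covariate. Since the striatal score itself differed between groups, the fit takes up part of any group difference, and the reason for these shifts was not tested.

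Across animals within groups, 10 relations with the striatal score were computed and none passed after adjustment. The score correlated with Foxp2 at r = 0.58 (permutation p = 0.007, adjusted 0.07) and rho = 0.62 (permutation p = 0.022, adjusted 0.12), with Bcl11b at r = 0.42 (permutation p = 0.27, adjusted 0.53) and rho = 0.36 (permutation p = 0.31, adjusted 0.56), and with Cplx3 at r = -0.50 (permutation p = 0.095, adjusted 0.38) and rho = -0.69 (permutation p = 0.023, adjusted 0.12). Without control 1 and control 5, r was 0.25 for Foxp2, 0.44 for Bcl11b and -0.36 for Cplx3, so that of Foxp2 rested on those animals.

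Myelin markers, of the white matter below layer 6b and of the fibres within it, had lower means in 10 of 10 members, beside 11093 of 23099 probe sets. Of these members 4 were called (Mobp, Cnp, Cldn11 and Mal), beside 0.805% of all probe sets called lower. The mean of the myelin list ran from 6.95 to 7.48 in poly(I:C) offspring and from 7.38 to 7.77 in control offspring. Poly(I:C) 4, lowest in the deep-layer means, had the lowest myelin mean of all 12 animals, 6.95, and poly(I:C) 5, highest of its group in layers 5, 6 and 6b, had the highest of its group, 7.48. Poly(I:C) 6 came next below poly(I:C) 5 in its group in the myelin mean, 7.47, and in layers 6 and 6b, at 0.002 and 0.015. In layer 5 it was at -0.010, below poly(I:C) 1 and poly(I:C) 3. Control 1 went otherwise, with the lowest myelin mean of the controls, 7.38, and the highest layer 6b mean of all 12 animals, 0.190. The relation of the layer means to the myelin mean was not tested. With the myelin mean as a covariate, chosen after the data had been seen, 10 probe sets were called in all and none of the markers, with Bcl11b at -0.09 (limma adjusted p = 0.521), Ntsr1 at -0.08, Syt6 at -0.03 and Cplx3 at -0.14, while Foxp2, Tle4 and Nxph4 were above 0 at 0.05, 0.08 and 0.04. As the myelin mean also differed between groups, that fit takes up part of any group difference.

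General markers of cortical neurons check the tissue. Of 5 markers of cortical excitatory neurons none was called, with list means from 9.83 to 9.86 in poly(I:C) offspring and from 9.75 to 9.86 in control offspring. Slc17a7, the vesicular glutamate transporter that defines these cells, averaged 10.81 in both groups. Neurod6, a transcription factor of these neurons, was at 0.12 ± 0.04 log2 (SE; limma adjusted p = 0.100), with 6 of 6 poly(I:C) animals above the control mean. None was called among 7 interneuron, 5 astrocyte, 4 microglial, 4 endothelial or 4 claustral markers, beside 2.83% of all probe sets.

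The genes whose variation among animals was most like that of each layer mean were sought among 18810 other genes, by Pearson's r of values centred within groups over the 12 animals, a ranking with no test. For layer 5 they were Sulf1 (r = 0.93), a heparan sulfate sulfatase on the deep-layer list, Bloc1s1 (0.93) and Map1lc3b (0.91). For layer 6 they were Chchd5 (0.94), Cdk4 (0.92) and Glra2 (0.92), a glycine receptor subunit. For layer 6b they were Ak1 (0.94), Fam162b (0.93) and Gtf2h4 (0.91). Sulf1 and Glra2 differed by -0.13 and -0.18 log2 between groups.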

How the data were processed

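Total RNA of the medial prefrontal cortex of 6 poly(I:C) and 6 control mice was hybridised to Affymetrix Mouse Gene 1.1 ST strips, per the labels' protocols. The authors deposited 1 log2 value for each probe set and array, as the scale shows. Per the submitters' processing notes, Partek 6.6 and RMA were used, in roles that are not stated. The genome build was not given in the sources used here. Normalizing arrays in this way compresses small differences of dim probe sets, and the number of arrays limits precision.

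All 35556 probe sets in 12 columns were read. Array medians lay between 5.15 and 5.21, and pairs of arrays correlated at 0.997 to 0.999 across annotated probe sets, which are not independent. The platform annotation gave a single symbol to 21218 probe sets, more than 1 to 1881 and no symbol to 12457, and 21185 single symbols were found in RefSeq by gene identifier. The 23099 annotated probe sets entered 1 linear model (limma 3.58.1 under R 4.3.3, lmFit with eBayes), in which the contrast was poly(I:C) minus control, two-sided, with Benjamini-Hochberg adjustment over all of them. Errors of differences are moderated standard errors, intervals are 95%, and adjusted p-values come from that fit. Correlations used Python 3.11.15 and numpy 2.4.6 with 100000 permutations within groups, two-sided, adjusted over 45 pairs of markers and 10 relations with the striatal score. Fit and correlations were tested on simulated data.

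The members and lists, with the layer each member stands for, were chosen with earlier results of these data known. Named genes were all members, the called genes and up to 4 of lowest p in the deep-layer, partner, upper-layer and striatal lists, and 3 genes most like each layer mean. The called myelin genes, Slc17a7 and Neurod6, and Sox5, Tbr1 and Bcl11a, were named beyond that rule. Alternatives were median centring, quantile normalization, a replicate block, weighted arrays, filters at the 25th and 50th percentile of brightness, all rows, the mean over a gene's probe sets, other variance models, a striatal covariate, and leaving out single animals or controls 5 and 6 together. A myelin covariate was added later.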

Additional observations from a re-analysis of the deposited data

Results flagged for a closer look

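Of 20 combinations of marker and group examined for an animal far from its group, 3 stood out, all of them poly(I:C) 4 at the bottom of the poly(I:C) group. Chance flags about 1 in 20 such groups, and the 3 genes come from 1 array. In Fezf2 it lay at 8.339, a gap of 0.201 log2 to the next animal or 0.674 of the group's range. In Etv1 it lay at 8.913, a gap of 0.093 or 0.660 of the range. In Cplx3 it lay at 5.284, a gap of 0.276 or 0.742 of the range. Without this animal the Cplx3 difference was -0.16 log2.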

How the results depend on the processing

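The number of markers called was 1 as reported, for Bcl11b, and ranged from 0 to 2 when 1 animal was left out. It was 2 after median centring (Bcl11b and Cplx3) and 0 with all rows of the table, without variance moderation and with the myelin covariate. It was 1 without controls 5 and 6 and with the striatal covariate, but the marker was then Cplx3. Over all annotated probe sets, deviations of same-numbered animals correlated at -0.092 to 0.11. These values gave no sign of pairing by replicate number but cannot show that there was none. With the replicate number as a block 2 markers were called, Bcl11b and Ntsr1 (limma adjusted p = 0.0396). The standard error of Ntsr1 was 0.044 in that fit, against 0.064 without the block, while that of Cplx3 stayed at 0.061. The block also brought the other Etv1 probe set past the threshold (0.0268). Over all probe sets 653 were called, and 122 without variance moderation, 414 with all rows, 230 to 818 without 1 animal, 373 with the striatal and 10 with the myelin covariate.

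Signs changed only in markers that were not called. Fezf2 was at 0.002 with array weights, 0.009 with the striatal covariate and 0.084 with the myelin covariate, and at -0.028 to 0.031 without 1 animal. Pcp4 was at 0.004 with the myelin covariate and at -0.037 to 0.00027 without 1 animal. With the myelin covariate Foxp2 was at 0.051, Tle4 at 0.081 and Nxph4 at 0.037. Bcl11b, Etv1, Ntsr1, Syt6 and Cplx3 kept their sign in every alternative run. The causes of these changes were not tested. Nxph4 and Cplx3 are below the 50th percentile of brightness and have no value in that fit.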
